A study of Mus musculus with 12 samples.

Results

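The genes of the ionotropic glutamate receptors and of the GABA receptors were followed in mouse brain, with liver as background. The genes were a given list of 28 receptor subunits, each represented by the array probe sets (groups of short probes for 1 transcript) listed with it. Of these, 26 had at least 1 probe set, out of 17097 genes with one, and Grin1 and Gabbr2 were not analysed here. They held 52 probe sets, and the one brightest on average across the 12 arrays gave each gene its main value. To be tested, a gene had to lie at or above the median of its array on at least 3 arrays. By that rule 23 of the 26 were tested. Grin2d, Gabra6 and the main probe set of Grik1 were too dim and are given as levels.

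Glutamate is the main excitatory transmitter of the brain and GABA the main inhibitory one. AMPA, NMDA and kainate receptors are cation channels that glutamate opens, each built from several subunits, and GABA-A receptors are chloride channels built mostly from alpha, beta and gamma or delta subunits. Which subunits a neuron makes sets where a receptor sits, how fast it opens and closes and which drugs bind it. Gabbr1 and Gabbr2 are the exception in the list, because they form the GABA-B receptor, which acts through G proteins and is not itself a channel.

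Brain and liver were taken from male BALB/c mice of 10 weeks, with no mutant or treated group. Each tissue was either formalin-fixed and paraffin-embedded (FFPE) or kept fresh-frozen (FF) in RNAlater, and each was taken at 0 h, at 3 h after death at room temperature, or at 18 h after death at 4 °C. The 12 conditions (FFPE brain, FF brain, FFPE liver and FF liver, each at 3 times) had 1 array each, so no condition had a replicate of its own. The labels give no number of animals, do not say whether arrays share an animal, and name no brain region. For FFPE, fixation in 10% formalin lasted 24 h and the blocks stood for 7 d before cutting at 10 µm. The FFPE RNA was amplified with a whole-transcript kit and the FF RNA with a kit that copies from the 3′ end. Preservation therefore cannot be told apart from labelling kit, nor time after death from storage temperature.

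Levels below are log2 RMA intensities and differences are log2 differences between them, given as estimate ± standard error (SE). Because probes differ in affinity, the level of 1 gene is not set against that of another. Differences were estimated with limma across 13073 genes, with Benjamini-Hochberg adjusted p-values over all of them and a threshold of 0.05. P-values measure the spread between these arrays after the time terms, not the spread between animals.

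Array medians lay between 4.87 and 4.89 in FFPE brain, against 4.67 to 4.68 in FF brain. The standard deviation over probe sets was smaller in FFPE brain, at 1.478 to 1.506, against 1.833 to 1.848 in FF brain. The median of the tested genes was 5.68 to 5.69 in FFPE brain, against 6.23 to 6.26 in FF brain. The part of this narrower spread in the FFPE minus FF differences was not tested. The 3′ probe set of the Gapdh control exceeded its 5′ probe set by 1.22 to 1.25 in FFPE brain, against -0.02 to 0.05 in FF brain. It exceeded it by 1.04 to 1.77 in FFPE liver and by 0.03 to 1.14 in FF liver. In brain, therefore, every FFPE array had a wider gap between the 3′ and 5′ ends of this transcript than every FF array. Its part in the results was not tested. The brain label was borne out by neuronal genes: 10 of 10 markers found in all neurons were higher in brain than in liver, in FFPE and in FF. Of 9 cerebellar markers, 4 (Car8, Cbln3, Fat2 and Pcp2) lay no higher on any FF brain array than on the highest FF liver array. En2 lay at 3.60 to 3.64 in FF brain, against 3.43 to 3.59 in FF liver. Calb1, Pvalb, Zic2 and Neurod1, which other brain regions also use, were higher in FF brain. In FFPE, 3 of the 6 tested cerebellar markers were higher in brain than in liver and 1 was lower, and Fat2 lay at 5.60 to 5.68 in FFPE brain, against 5.30 to 5.49 in FFPE liver.

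Across tissues, the 23 tested receptor genes were compared between brain and liver. In FFPE, 19 of the 23 tested were higher in brain than in liver, none was lower and 4 did not pass the test, beside 63.5% of all genes tested called, 29% higher and 34.5% lower. In FF, 20 were higher, 2 were lower and 1 did not pass, beside 74.1% of all genes called, 37.5% higher and 36.5% lower. Of the 23 genes, 14 reached the array median on fewer than 3 liver arrays, so whether they were tested rested on their brain arrays, and their counts support nothing here. Among the 9 that reached it on at least 3 arrays of each tissue, 5 were higher in FFPE brain with 4 not called, and 7 were higher and 2 lower in FF brain. In bulk tissue, fewer cells of a type and less RNA per cell cannot be told apart.

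**Figure D1:**
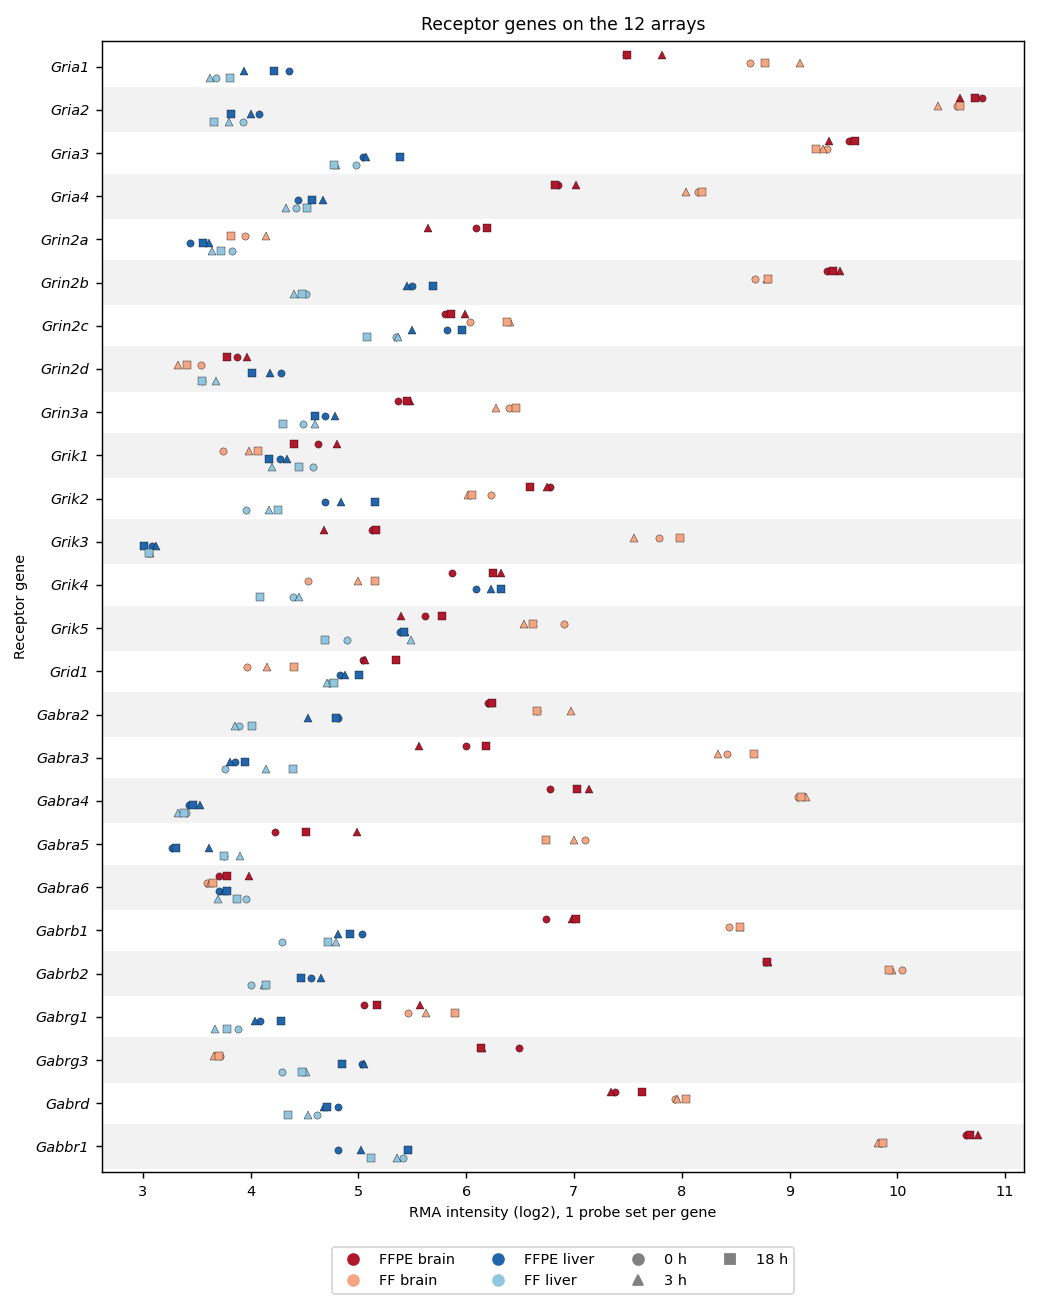
Levels of the 26 receptor genes on the 12 arrays. The horizontal axis is the log2 RMA intensity of the probe set that represents each gene, rows are genes, colours are FFPE brain, FF brain, FFPE liver and FF liver, and symbols are 0, 3 and 18 h. The 3 times of a group sit close together, brain lies right of liver for most genes, and FFPE and FF brain separate for many (Grik3 at 4.68 to 5.16 in FFPE brain and 7.56 to 7.98 in FF brain).

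The AMPA receptor subunits carry most of the fast excitatory current. Gria2 encodes the subunit whose edited form keeps calcium out of the channel. At 0, 3 and 18 h its levels were 10.79, 10.58 and 10.72 in FFPE brain, against 10.55, 10.38 and 10.58 in FF brain, 4.08, 4.00 and 3.82 in FFPE liver, and 3.93, 3.80 and 3.66 in FF liver. The FFPE and FF brain arrays met at 10.58, and all of them lay far above liver. Brain exceeded liver by 6.73 ± 0.11 in FFPE and by 6.71 ± 0.11 in FF (adjusted p = 6.5e-14 and 4.1e-14), a ratio of 106-fold and 104-fold. FFPE minus FF in brain was 0.19 ± 0.11 (adjusted p = 0.111).

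Gria3, also an AMPA subunit, had 9.55, 9.37 and 9.61 in FFPE brain and 9.35, 9.31 and 9.25 in FF brain at 0, 3 and 18 h. FFPE lay above FF at each time by a small step, and the difference of 0.21 ± 0.13 did not pass the test (adjusted p = 0.156). Relative to all genes, whose median difference was -0.42, Gria2 and Gria3 stood on the high side. With arrays quantile-normalized, both passed as higher in FFPE brain, at 0.61 and 0.89.

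The other AMPA subunits fell in FFPE brain on their main probe sets. Gria1, the subunit whose delivery to synapses follows activity, had 7.48, 7.82 and 7.49 in FFPE brain, against 8.63, 9.10 and 8.77 in FF brain. Gria4, an AMPA subunit common in interneurons, had 6.85, 7.02 and 6.82 in FFPE brain, against 8.15, 8.04 and 8.19 in FF brain. For both genes the FFPE and FF brain arrays did not overlap at any time. The differences were -1.24 ± 0.12 for Gria1 and -1.23 ± 0.12 for Gria4 (adjusted p = 4.6e-07 and 7.6e-07). On the main probe sets 2 of 4 AMPA genes thus fell in FFPE brain and 2 did not pass, beside 53.4% of all genes lower and 28.4% higher. Other probe sets differed from these, at 1.93 for Gria4, -0.75 and 1.52 for Gria2 and -0.96 for Gria3. On their main probe sets all 4 AMPA genes were higher in brain than in liver, beside 29% of all genes in FFPE and 37.5% in FF. Gria1, Gria2 and Gria4 reached the array median on no liver array, so this count supports nothing here. The smallest gap was that of Gria4, at 2.34 ± 0.12 in FFPE and 3.70 ± 0.12 in FF. On its probe set at 1.93, brain minus liver was 1.24 ± 0.12 in FFPE and 0.13 ± 0.12 in FF (adjusted p = 8.9e-07 and 0.358 in the limma fit over probe sets).

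NMDA receptors need both glutamate and a relieved magnesium block to open, and their GluN2 subunits set the channel's kinetics. Grin2b encodes the GluN2B subunit that dominates in young forebrain. Its levels were 9.35, 9.47 and 9.40 in FFPE brain, against 8.68, 8.79 and 8.80 in FF brain, and 4.40 to 5.69 over the liver arrays. FFPE brain exceeded FF brain at each time, by 0.65 ± 0.11 (adjusted p = 1.1e-04). These levels are those of its main probe set. A second tested one lay at 5.60, 5.68 and 5.61 in FFPE brain and 4.09, 4.14 and 4.20 in FF brain. On it brain minus liver was 0.43 ± 0.13 in FFPE and -0.46 ± 0.13 in FF (adjusted p = 0.00983 and 0.00569 in the limma fit over probe sets).

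Grin2a encodes GluN2A, the subunit that joins synaptic NMDA receptors as the brain matures. It had 6.09, 5.65 and 6.19 in FFPE brain, against 3.95, 4.14 and 3.82 in FF brain. Liver held 3.44, 3.61 and 3.56 in FFPE and 3.83, 3.64 and 3.73 in FF. The single probe set of this gene thus stood clear of liver in FFPE brain and near the liver level in FF brain. Brain exceeded liver by 2.44 ± 0.15 in FFPE (adjusted p = 9.6e-09) and by 0.24 ± 0.15 in FF (adjusted p = 0.181). Grin2a reached the array median only on the FFPE brain arrays, so its place among the tested genes rested on them.

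The remaining NMDA genes were dimmer. Grin2c, the GluN2C gene best known from cerebellar granule cells, lay at 5.80, 5.99 and 5.86 in FFPE brain and 6.04, 6.41 and 6.38 in FF brain. Brain exceeded liver by 0.12 ± 0.14 in FFPE (adjusted p = 0.468) and by 1.01 ± 0.14 in FF (adjusted p = 2.4e-05). FFPE minus FF in brain was -0.39 ± 0.14 (adjusted p = 0.0207), and this direction flipped to 0.07 with quantile normalization. Without either 18 h brain array its adjusted p was 0.121 by limma. Grin3a, a GluN3 subunit that lowers calcium entry, fell in FFPE brain by 0.95 ± 0.11 on the log2 scale (adjusted p = 3.9e-06). Grin2d, the GluN2D gene, lay at 3.87, 3.97 and 3.78 in FFPE brain and 3.54, 3.33 and 3.41 in FF brain, under its liver levels of 4.01 to 4.28 in FFPE and 3.55 to 3.68 in FF.

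Kainate receptors act on both sides of the synapse and hold low-affinity subunits (Grik1 to Grik3) and high-affinity ones (Grik4 and Grik5). On the main probe sets, Grik3 showed the widest preservation gap of the 23 genes. It had 5.13, 4.68 and 5.16 in FFPE brain, against 7.79, 7.56 and 7.98 in FF brain, while all 6 liver arrays lay between 3.01 and 3.12. The difference of -2.79 ± 0.11 (adjusted p = 3.6e-10) amounts to 6.9-fold lower signal in FFPE brain on this probe set. On it Grik3 still exceeded liver in FFPE, by 1.92 ± 0.11, against 4.71 ± 0.11 in FF. A second probe set, too dim to test, went the other way, with 4.80, 4.82 and 4.77 in FFPE brain against 3.46, 3.45 and 3.59 in FF brain. This second probe set lay at 4.00 to 4.34 in FFPE liver and 3.64 to 4.01 in FF liver. On the main probe set only 2 FFPE brain arrays reached the array median, so Grik3 was tested through its FF brain arrays.

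Grik2, whose transcript is edited like that of Gria2, had 6.78, 6.75 and 6.59 in FFPE brain and 6.23, 6.02 and 6.05 in FF brain. It rose in FFPE brain by 0.61 ± 0.11 (adjusted p = 2.5e-04), and its brain-over-liver gap was 1.81 ± 0.11 in FFPE and 1.97 ± 0.11 in FF. On its second probe set that gap was 1.61 ± 0.16 in FFPE and 0.16 ± 0.16 in FF (adjusted p = 8.2e-07 and 0.368 in the limma fit over probe sets). Grik5 fell, with 5.62, 5.40 and 5.78 in FFPE brain against 6.91, 6.54 and 6.62 in FF brain, a difference of -1.09 ± 0.15 (adjusted p = 1.9e-05). In FFPE, Grik5 did not separate brain from liver (0.19 ± 0.15, adjusted p = 0.304), whereas in FF it did, by 1.67 ± 0.15. Grik4 rose in FFPE in both tissues, by 1.25 ± 0.13 in brain and by 1.90 ± 0.13 in liver, and FFPE brain and FFPE liver did not differ by the test (-0.07 ± 0.13, adjusted p = 0.674). Like Grin2a and Gabrg3, it reached the array median on at least 3 arrays only through FFPE.

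Grik1 was split between its 2 probe sets. The brighter one by mean, which was too dim to test, lay at 4.63, 4.80 and 4.40 in FFPE brain and 3.74, 3.99 and 4.07 in FF brain, beside 4.17 to 4.58 over all liver arrays. The other lay at 4.22, 4.35 and 4.15 in FFPE brain and 5.01, 5.47 and 5.31 in FF brain, beside 3.47 to 3.81 in liver. On the second probe set brain stood above liver in both preservations, and FFPE brain was lower than FF brain by 1.02 (difference -1.02 ± 0.12, adjusted p = 4.2e-06 in the fit over probe sets). Grid1, a delta glutamate receptor that organises synapses and is not opened by glutamate in the usual way, had 5.04, 5.06 and 5.35 in FFPE brain and 3.97, 4.15 and 4.40 in FF brain. It was below liver in FF (-0.56 ± 0.11, adjusted p = 4.3e-04) and did not differ by the test in FFPE (0.24 ± 0.11, adjusted p = 0.0688). Grid1 reached the array median on no FF brain array.

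The GABA-A alpha subunits shape where GABA-A receptors sit and how benzodiazepines act on them. Gabra4, found in receptors outside the synapse, had 6.78, 7.14 and 7.03 in FFPE brain, against 9.08, 9.15 and 9.11 in FF brain, and 3.33 to 3.53 over the liver arrays. Gabra3, typical of deep brain nuclei and monoamine neurons, had 6.0, 5.56 and 6.18 in FFPE brain, against 8.42, 8.34 and 8.67 in FF brain. Neither gene had an FFPE brain array within reach of an FF one. The differences were -2.13 ± 0.11 for Gabra4 and -2.56 ± 0.13 for Gabra3 (adjusted p = 2.6e-09 and 2.1e-09).

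Gabra5, which is abundant in hippocampus, had 4.23, 4.99 and 4.51 in FFPE brain, against 7.10, 7.00 and 6.74 in FF brain. Liver lay at 3.27, 3.61 and 3.31 in FFPE and 3.75, 3.90 and 3.75 in FF. Its FFPE brain arrays were thus closer to liver than to FF brain, at -2.37 ± 0.15 from FF brain and 1.18 ± 0.15 above FFPE liver. Only 1 FFPE brain array reached the array median, so the gene was tested through FF brain. Gabra2, a subunit of forebrain synapses, differed least among the 4, by -0.54 ± 0.12 (adjusted p = 8.6e-04), and this became 0.13 with quantile normalization. On their main probe sets all 4 tested alpha genes fell in FFPE brain, beside 53.4% of all genes. That direction flipped for Gabra2 with quantile normalization, and second probe sets went the other way, at 0.64 ± 0.13 for Gabra2 (adjusted p = 5.2e-04 in the fit over probe sets) and 0.42 ± 0.12 for Gabra4 (adjusted p = 0.00558). A second probe set of Gabra3, too dim to test, was also higher in FFPE brain. It lay at 4.62, 4.72 and 4.76 there, against 3.81, 4.02 and 3.93 in FF brain.

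Gabra6 showed no brain signal above liver on its main probe set. This subunit is made almost only by cerebellar granule cells. Its main probe set lay at 3.71, 3.99 and 3.78 in FFPE brain and 3.60, 3.62 and 3.65 in FF brain, against 3.71, 3.75 and 3.78 in FFPE liver and 3.96, 3.70 and 3.87 in FF liver. Its second probe set lay at 3.90 to 4.17 in FFPE brain and 3.47 to 3.60 in FF brain, against 3.59 to 3.85 in FFPE liver and 3.59 to 3.76 in FF liver. Apart from the FFPE brain arrays on the second probe set, brain overlapped or lay under liver. Cerebellar markers are given above.

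Several GABA-A genes are chromosomal neighbours. Gabra6 lies next to Gabrb2 on chromosome 11, and Gabrg1 next to Gabra2 on chromosome 5. The 250 bases before the annotated start of these 4 genes are shown because in each pair the neighbours differ in base composition. Sequences are RefSeq's on GRCm38.p6, 5′ to 3′ on the gene's strand, and capitals mark GGGCGG or its reverse complement (GC box) and TATAAA or its reverse complement (TATA box).
Gabra6, chr11:42321073-42321322, minus strand: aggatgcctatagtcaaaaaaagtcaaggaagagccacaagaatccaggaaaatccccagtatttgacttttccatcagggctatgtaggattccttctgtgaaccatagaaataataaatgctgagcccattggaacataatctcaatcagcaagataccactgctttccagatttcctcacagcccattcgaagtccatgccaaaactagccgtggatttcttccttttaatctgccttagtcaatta
Gabrb2, chr11:42420190-42420439, plus strand: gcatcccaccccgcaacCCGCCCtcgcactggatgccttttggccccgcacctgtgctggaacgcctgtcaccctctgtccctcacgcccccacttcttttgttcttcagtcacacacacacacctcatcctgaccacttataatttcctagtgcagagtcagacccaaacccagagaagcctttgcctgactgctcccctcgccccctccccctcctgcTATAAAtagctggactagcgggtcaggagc
Gabrg1, chr5:70842618-70842867, minus strand: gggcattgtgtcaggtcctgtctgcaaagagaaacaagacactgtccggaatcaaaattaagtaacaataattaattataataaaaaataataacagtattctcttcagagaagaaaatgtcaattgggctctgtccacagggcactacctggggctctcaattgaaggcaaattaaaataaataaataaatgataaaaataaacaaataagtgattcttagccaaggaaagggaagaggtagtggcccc
Gabra2, chr5:71095850-71096099, minus strand: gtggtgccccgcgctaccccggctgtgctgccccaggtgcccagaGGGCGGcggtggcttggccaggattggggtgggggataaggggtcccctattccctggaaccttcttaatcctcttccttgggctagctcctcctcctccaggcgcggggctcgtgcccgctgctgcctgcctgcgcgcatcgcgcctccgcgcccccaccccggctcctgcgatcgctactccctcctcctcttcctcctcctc
The Gabra6 window held 2 CpG dinucleotides and no marked motif, and the Gabrb2 window 8 CpG, 1 GC box and 1 TATA box. The Gabrg1 window held 1 CpG and the Gabra2 window 18 with 1 GC box. Of the 28 genes, 20 had such a window. A GC box was present in 10 of the 20 (50%), beside 33% of 27025 windows of the same length from all genes. TATAAA was present in 2 (10%, beside 13%) and the E-box CACGTG, searched on both strands without capitals, in 1 (5%, beside 6.04%). The median ratio of observed to predicted CpG was 0.63 over the 20 windows, beside 0.38 over all. The 27025 windows were not selected by gene type, so these contrasts do not mark a trait of receptor genes. A match describes these letters only and says nothing of binding.

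The beta subunits form the GABA site of the GABA-A receptor together with the alpha subunits. Gabrb2 had 8.78, 8.80 and 8.79 in FFPE brain, against 10.04, 9.95 and 9.92 in FF brain, and 4.00 to 4.65 over the liver arrays. Gabrb1 had 6.74, 6.98 and 7.02 in FFPE brain, against 8.44, 8.54 and 8.54 in FF brain. Both fell in FFPE brain on their main probe sets with no overlap, by 1.18 ± 0.11 for Gabrb2 and 1.59 ± 0.14 for Gabrb1 on the log2 scale (adjusted p = 4.8e-07 and 2.3e-07), though Gabrb2 turned to 0.26 when its probe sets were averaged. Gabrb2 exceeded liver by 4.23 ± 0.11 in FFPE and 5.88 ± 0.11 in FF.

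Among the gamma and delta subunits, Gabrg3 rose in FFPE brain. It had 6.49, 6.15 and 6.14 in FFPE brain, against 3.72, 3.66 and 3.71 in FF brain, and 5.03, 5.05 and 4.85 in FFPE liver, against 4.29, 4.51 and 4.48 in FF liver. On this probe set FF brain held the lowest levels of the 4 groups and FFPE brain the highest. Brain minus liver was 1.28 ± 0.12 in FFPE (adjusted p = 6.9e-07) and -0.73 ± 0.12 in FF (adjusted p = 1.2e-04). This probe set reached the array median on no FF array. A second probe set of Gabrg3, too dim to test, had 4.08 to 4.23 in FFPE brain, against 4.27 to 4.58 in FF brain, and 3.73 to 3.81 in FFPE liver, against 3.63 to 3.73 in FF liver. On it brain lay above liver in both preservations, and averaging the probe sets took the FF brain minus liver difference to 0.00. Gabrd, a subunit of receptors that respond to ambient GABA, had 7.38, 7.34 and 7.63 in FFPE brain, against 7.94, 7.96 and 8.04 in FF brain. Its difference of -0.53 ± 0.11 (adjusted p = 7.1e-04) flipped to 0.40 with quantile normalization. Gabrg1, also made by some glia, differed by -0.40 ± 0.14 (adjusted p = 0.0156), with the FFPE and FF brain arrays overlapping, and it did not pass without either 18 h brain array (adjusted p = 0.191).

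Gabbr1, the ligand-binding subunit of the GABA-B receptor, had 10.64, 10.75 and 10.67 in FFPE brain, against 9.85, 9.82 and 9.87 in FF brain. Liver lay at 4.81, 5.02 and 5.46 in FFPE and 5.41, 5.36 and 5.12 in FF. The FFPE brain arrays were the highest of the 12, and the tissue gap was 5.59 ± 0.16 in FFPE and 4.55 ± 0.16 in FF. FFPE minus FF in brain was 0.84 ± 0.16 (adjusted p = 2.5e-04). These values are those of its main probe set. On a second tested one the tissue gap was 2.03 ± 0.14 in FFPE and 2.11 ± 0.14 in FF. There FFPE minus FF in brain was 0.56 ± 0.14 (adjusted p = 0.00207 in the limma fit over probe sets).

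Taking preservation over the whole list, 7 genes rose in FFPE brain, 14 fell and 2 did not pass. Over all 13073 genes 81.8% were called, 28.4% higher and 53.4% lower, so the share of receptor genes called and its tilt lie close to those of all genes. The median difference was -0.53 over the 23 genes and -0.42 over all genes. Array against array, 14, 12 and 12 of the 23 differed at least 2-fold at 0, 3 and 18 h, beside 47.5%, 46.5% and 45.7% of all genes. Of the 23, 3 (Grin2a, Grik4 and Gabrg3) passed the brightness rule only through FFPE arrays and 2 (Grik3 and Gabra5) only through FF arrays, so brightness in 1 preservation decided whether these 5 were tested. Among the other 18, 4 rose, 12 fell and 2 did not pass. Quantile normalization moved the median of all genes by 0.30, to -0.11, and the median of the receptor genes to 0.07, with 10 higher and 10 lower.

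The 2 tissues moved by unequal amounts. In liver, 11 of the 23 were higher in FFPE, 1 was lower (Gabra5) and 11 did not pass, beside 71.2% of all genes called, 27.8% higher and 43.5% lower. Without either 18 h liver array, 7 were higher. The difference between the preservation effect in brain and that in liver was positive for 4 genes, negative for 16 and did not pass for 3, beside 54.9% of all genes called, 18.5% positive and 36.4% negative. By construction it equals the brain-over-liver gap in FFPE minus that gap in FF. Its median was -0.89 over the receptor genes and -0.18 over all genes. With quantile normalization 7 were positive and 12 negative, and the share of positive calls over all genes went to 47.7%, beside 33.6% without it. Of the 23 genes, 14 reached the array median on fewer than 3 liver arrays, so a fall in liver had little room to show. For such genes this difference can largely repeat the brain difference.

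**Figure D2:**
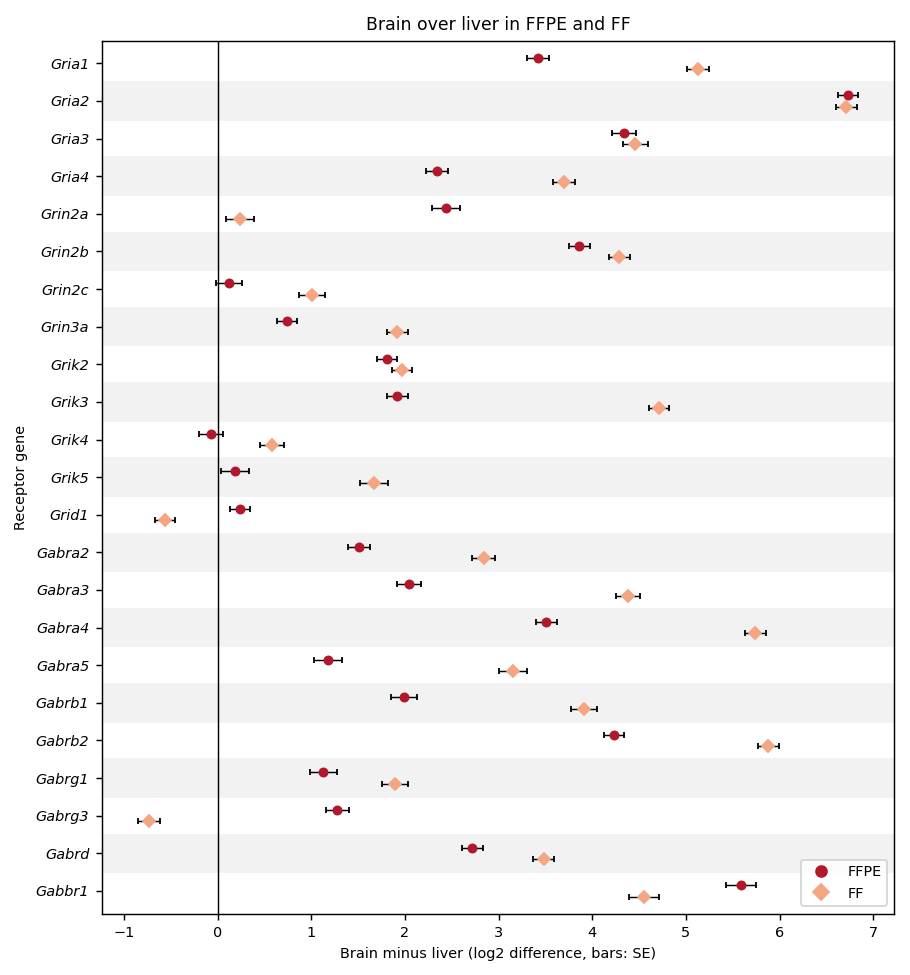
Brain minus liver for the 23 tested receptor genes. The horizontal axis is the log2 difference with its SE, red circles are FFPE and light diamonds FF, and the vertical line is 0. FFPE lies left of FF for most genes, at 1.92 against 4.71 for Grik3, and right of it for Grin2a, Grid1, Gabrg3 and Gabbr1 among the called ones.

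Probe sets of 1 gene often went opposite ways. Among the 41 tested probe sets of the receptor genes, 17 were higher and 20 lower in FFPE brain, in a fit over all probe sets. Of 12 genes with at least 2 tested probe sets, 6 (Gria2, Gria4, Gabra2, Gabra4, Gabrb2 and Gabrd) had 1 called higher and another called lower, beside 41.5% of 4953 such genes overall. Gria4 is the clearest case. Beside its main probe set at -1.23, a second gave 6.09, 5.87 and 6.15 in FFPE brain, against 4.22, 4.11 and 4.00 in FF brain, a difference of 1.93 ± 0.12 (adjusted p = 9.9e-09). Another gave 3.70, 3.63 and 3.48 in FFPE brain, against 5.59, 6.15 and 6.31 in FF brain, a difference of -2.41 ± 0.16 (adjusted p = 1.3e-08).

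Gabrb2 had 5 probe sets, whose differences were -1.18, -0.17, 0.19, 0.60 and 1.84. The last gave 5.57, 5.39 and 5.77 in FFPE brain, against 3.66, 3.79 and 3.76 in FF brain. FF liver lay slightly higher, at 3.85 to 3.90. Brain minus liver in FF did not pass (-0.13 ± 0.12, adjusted p = 0.328 in the limma fit over probe sets). Gabra2 and Gabra4 were split as given above. Gria1, Grin3a, Grik2, Grin2b and Gabbr1 had the same direction on each tested probe set. For Grik3, Gabra3 and Gabrg3 a probe set too dim to test went against the main one at each time. A level or fold of these genes across preservations is thus that of a probe set, not of the gene.

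**Figure D3:**
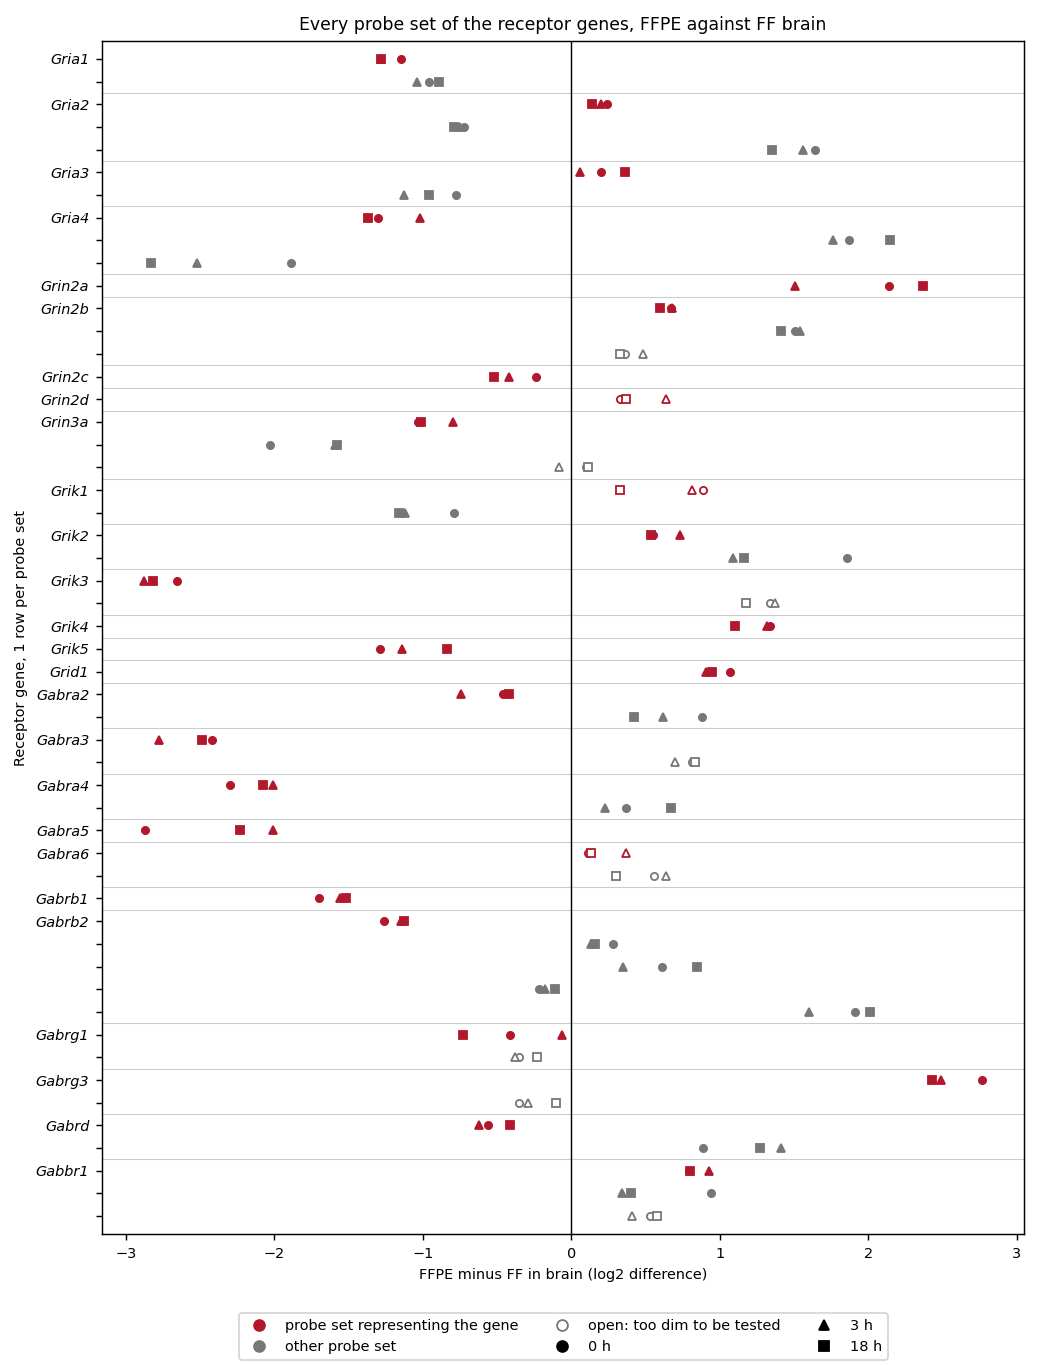
FFPE minus FF in brain for all 52 probe sets of the receptor genes. The horizontal axis is the log2 difference at 0, 3 and 18 h (circle, triangle and square), each row is a probe set, red marks the probe set that represents the gene, grey the others, and open symbols those too dim to test. The 3 times of a row agree in sign in most rows, while rows of 1 gene can lie on both sides of 0, as the 3 of Gria4 do at -2.41, -1.23 and 1.93.

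Among the receptor probe sets, the direction also split by the kind of accession listed with them. Of 15 tested receptor probe sets listed with a RefSeq mRNA accession, 8 were higher and 5 lower in FFPE brain, with a median of 0.56, beside 31.1% higher and 51.9% lower over all such probe sets. Of the 26 listed with another accession, 9 were higher and 15 lower, with a median of -0.65, beside 32.5% and 49.5% over all. Over all tested probe sets the medians were -0.38 with a RefSeq mRNA accession and -0.28 with another. The split among the receptor probe sets was seen after the values were known and was not tested.

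With time after death, no receptor gene passed the test in brain. At 3 h against 0 h, 0 of 23 were called by limma, beside 0.0765% of all genes (0.0459% higher and 0.0306% lower), and 3 had an unadjusted p under 0.05. At 18 h against 0 h, 0 were called beside 0.0306% (0.00765% higher and 0.0229% lower), with 2 at an unadjusted p under 0.05, and at 18 h against 3 h, 0 were called beside 0.0153% (0% higher and 0.0153% lower), with 3. The median difference over the 23 genes was 0.03 at 3 h and 0.07 at 18 h, with 0.02 over all genes at both times. Differences ranged from -0.34 to 0.46 at 3 h and from -0.18 to 0.50 at 18 h, with a median SE of 0.15. Few genes of any kind were called, so these counts do not set the receptor genes apart.

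Grik4 had the largest difference at both times. It had 5.87, 6.32 and 6.25 in FFPE brain and 4.53, 5.0 and 5.15 in FF brain at 0, 3 and 18 h. The 0 h array was the lowest in both preservations. The differences were 0.46 ± 0.16 at 3 h (adjusted p = 0.776, unadjusted p = 0.0127) and 0.50 ± 0.16 at 18 h (adjusted p = 0.995, unadjusted p = 0.00787). Gria1 stood 0.41 ± 0.14 higher at 3 h (adjusted p = 0.80), in 2 of 2 preservations, and 0.07 ± 0.14 at 18 h (adjusted p = 0.995). Grik3 was at -0.34 ± 0.13 at 3 h (adjusted p = 0.90), lower in 2 of 2 preservations. Grid1 stood 0.37 ± 0.13 above 0 h at 18 h (adjusted p = 0.995).

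Pairs of single arrays were compared with no test. In FF brain, no tested receptor gene differed 2-fold at 3 h against 0 h or at 18 h against 0 h, beside 0.566% and 0.375% of all genes. In FFPE brain none did either, beside 0.184% at 3 h and 0.138% at 18 h. At 18 h against 3 h no receptor gene differed 2-fold, beside 0.191% of all genes in FFPE brain and 0.13% in FF brain. The widest single step was 0.76 for Gabra5 in FFPE brain at 3 h, where FF brain gave -0.10. FFPE and FF brain disagreed in sign for 7 of 23 genes at 3 h and for 7 at 18 h.

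**Figure D4:**
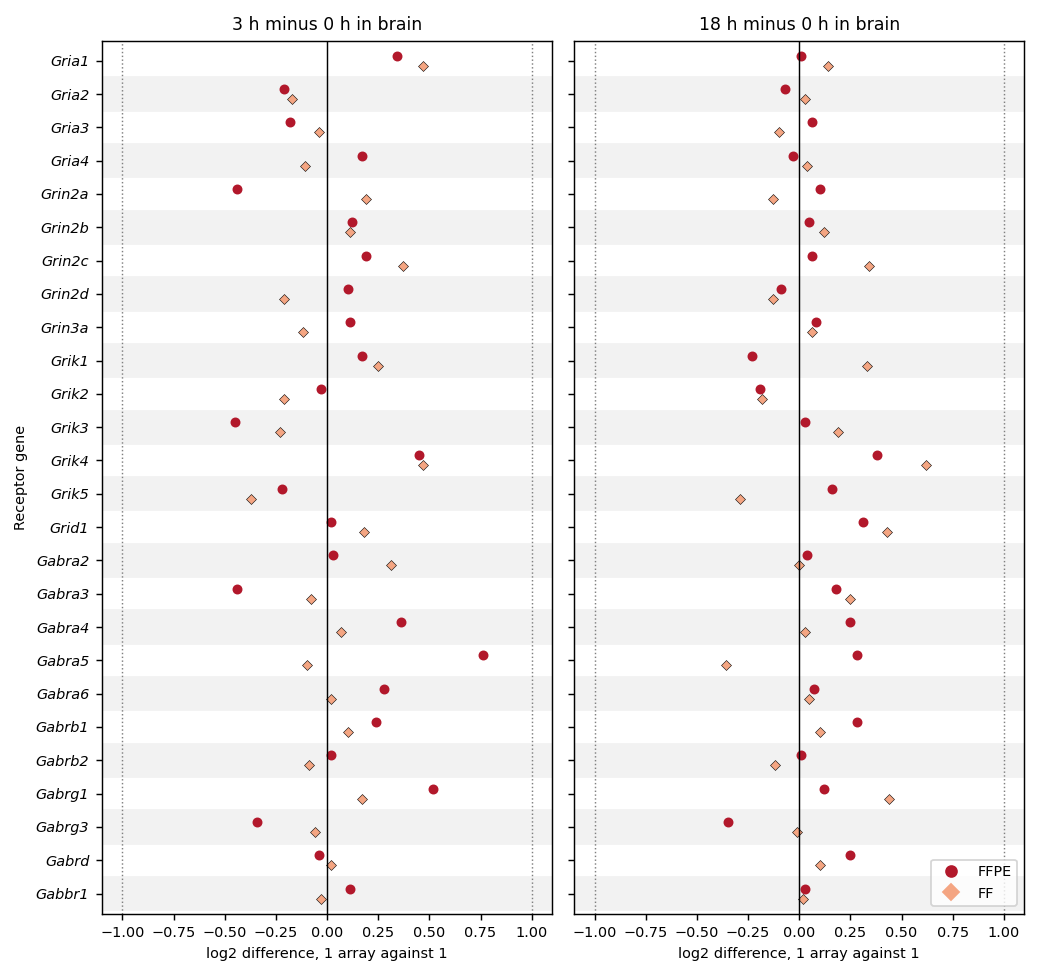
Change of the 26 receptor genes with time after death in brain. The horizontal axes are log2 differences of 1 array against 1, at 3 h (left) and 18 h (right) against 0 h, dark circles are FFPE and light diamonds FF, and dotted lines mark 2-fold. All points lie within the lines, the farthest being Gabra5 in FFPE at 3 h (0.76).

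Some markers of particular brain regions differed between the times, beside which the receptor values stand. The mean level of 10 thalamus markers at 0, 3 and 18 h was 5.50, 5.97 and 5.59 in FFPE brain and 5.80, 6.71 and 6.04 in FF brain. Of 8 tested, 4 rose at 3 h (Prkcd 1.83 ± 0.20, Plekhg1 1.47 ± 0.16, Rora 1.06 ± 0.14 and Slc17a6 1.04 ± 0.16). The mean level of 8 striatum markers was 7.90, 7.48 and 7.70 in FFPE brain and 8.45, 7.98 and 8.12 in FF brain. That of 9 cortex markers stayed at 7.28, 7.31 and 7.40 in FFPE brain and 8.10, 8.14 and 8.11 in FF brain. That of 12 hepatocyte markers was 5.45, 4.70 and 4.73 in FFPE brain and 6.84, 4.97 and 4.83 in FF brain, and 7 choroid plexus and ependyma markers ran 4.75, 5.99 and 5.73 in FFPE and 4.78, 6.35 and 5.79 in FF. That of 8 oligodendrocyte markers was 7.43, 8.04 and 7.74 in FFPE brain and 8.38, 8.87 and 8.65 in FF brain, and that of 8 hippocampus and dentate gyrus markers 5.82, 5.93 and 5.64 in FFPE brain and 5.49, 5.88 and 5.37 in FF brain. At 3 h against 0 h, 1 of 8 striatum and 2 of 12 hepatocyte markers were called lower. Of hippocampus and dentate gyrus markers 1 of 8, and of choroid plexus and ependyma markers 1 of 6, were called higher. No cortex or oligodendrocyte marker was called, beside 0.0765% of all genes. At 18 h against 0 h, 2 hepatocyte markers were lower and 1 choroid plexus and ependyma marker was higher, beside 0.0306% of all genes. Each mean is from 1 array. The arrays of the 3 times thus differed in the called markers, and their part in the receptor values was not tested.

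The partners of the receptors were followed by lists of known genes, whose counts in FFPE brain stand beside 28.4% of all genes higher and 53.4% lower. Of 6 tested metabotropic glutamate receptors, which act through G proteins, 4 fell in FFPE brain and 2 did not pass, led by Grm7 at -2.30 ± 0.11 and Grm5 at -1.04 ± 0.12. Of 18 auxiliary subunits, which escort glutamate receptors and tune them, 8 rose and 8 fell, from Syndig1 at -2.62 ± 0.11 to Cacng8 at 1.58 ± 0.16 among the 4 largest. Cacng8 reached the array median only on FFPE arrays, so its place among the tested genes rested on them.

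Scaffold genes of the excitatory synapse and partners of GABA receptors were mixed as well. Of 15 scaffold genes, 4 rose and 10 fell, with Nlgn1, a synaptic adhesion protein, at 3.61 ± 0.11 and Grip2, which binds AMPA receptor tails, at -2.16 ± 0.12. Of 13 GABA receptor partners, 1 rose (Kctd16, 2.98 ± 0.11) and 11 fell. Gphn, the gephyrin that anchors inhibitory receptors, fell by 2.69 ± 0.12, and Kctd12, an auxiliary subunit of GABA-B receptors, fell by 3.48 ± 0.14. Nlgn1 and Kctd16 reached the array median only on FFPE arrays, and Grip2, Gphn and Kctd12 only on FF arrays. Brightness in 1 preservation thus decided whether these were tested. The list medians were -0.91 for scaffold genes and -1.09 for GABA partners, beside -0.42 for all genes.

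Of 10 tested genes that make, release or clear glutamate and GABA, 3 rose in FFPE brain and 6 fell. Slc1a2, the main glial glutamate transporter, was at 3.36 ± 0.15 and Gad1, which makes GABA, at -2.17 ± 0.11. Gad2, which also makes GABA, went the other way. It had 8.94, 8.50 and 8.78 in FFPE brain, against 7.06, 6.72 and 6.94 in FF brain. Among 4 tested receptor subunits outside the list of 28, Grin3b and Gabrp rose and Glrb and Glra2 fell. Grin3b reached the array median on at least 3 arrays only through FFPE, and Glra2 only through FF. With time after death, 1 gene of all these partner lists passed, Slc17a6, a vesicular glutamate transporter that is also among the thalamus markers, at 3 h (adjusted p = 0.0288). None passed at 18 h against 0 h.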

How the data were processed

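Gene expression was measured in mouse brain and liver on 12 Affymetrix MG-430 PM arrays. The authors deposited log2 intensities for each probe set. Per the submitters' processing notes they used RMA, a method that corrects background, equalises arrays and summarises probes, and Affymetrix Expression Console. No versions are given in the sources used here, nor whether 1 run held all arrays. Arrays have no depth, and their number limits the precision. Of 45141 probe sets, 104 controls were set aside, 28898 had 1 gene, 551 had several and 15588 had none listed. Symbols in the platform annotation were updated through gene identifiers. The probe set with the highest mean represented a gene, and genes at or above the array median on at least 3 arrays (13073 of 17097) were tested.

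Differences were fitted with limma 3.58.1 in R 4.3.3 on the deposited log2 values, two-sided, with p-values adjusted by Benjamini-Hochberg over the 13073 genes and called under 0.05. The model held 4 tissue-by-preservation means and a 3 h and an 18 h term per tissue (8 coefficients, 4 residual degrees of freedom), so all 12 arrays share 1 estimate of the spread per gene. It was tested on simulated data. The receptor genes and all other lists were chosen with earlier results of these data known. From each other list, up to 4 genes past the threshold were named, largest differences first. Promoter windows were taken from RefSeq's table on GRCm38.p6 by symbol. Alternatives were the mean of all probe sets, every probe set on its own, unmarked probe sets, quantile normalization, no brightness filter, a robust spread with a trend on level, a fit on the compared groups only, a model without time terms and leaving out each array in turn.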

Additional observations from a re-analysis of the deposited data

Results flagged for a closer look

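For 20 receptor genes the preservation difference in brain differed from that in liver, by the interaction term of the limma fit. Of the 23 tested genes, 14 reached the array median on fewer than 3 liver arrays, so a fall in liver had little room to show. For such genes the value can largely repeat the brain difference, at -2.80 beside -2.79 for Grik3 and -2.24 beside -2.13 for Gabra4. The values below are the FFPE minus FF difference in brain minus that in liver, on the log2 scale. Among the AMPA genes it was -1.71 for Gria1 and -1.37 for Gria4. Among the NMDA genes it was 2.20 for Grin2a, -0.43 for Grin2b, -0.89 for Grin2c and -1.17 for Grin3a. The kainate genes gave -2.80 for Grik3, -0.65 for Grik4 and -1.48 for Grik5, and Grid1 gave 0.81. The GABA-A alpha genes gave -1.33 for Gabra2, -2.34 for Gabra3, -2.24 for Gabra4 and -1.97 for Gabra5. The beta genes gave -1.91 for Gabrb1 and -1.65 for Gabrb2. The gamma and delta genes gave -0.76 for Gabrg1, 2.01 for Gabrg3 and -0.76 for Gabrd, and Gabbr1 gave 1.04. Some of these signs turned with the processing. Grin2b went to 0.37 with quantile normalization and 0.21 with probe sets averaged, and it lost its call in 10 of the 12 fits that left out 1 array. Gabrd went to 0.32 and 0.19 under the same settings and to 1.14 on its unmarked probe set, and Gabrb2 to 0.04 with probe sets averaged. Over all genes 54.9% passed the interaction test with 1 probe set per gene, with a median of -0.18, so a call here does not set a receptor gene apart.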

How the results depend on the processing

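No paired analysis was possible because there were no replicate numbers to pair by, and FFPE and FF arrays were matched by time through the model's time terms. All time counts in brain stayed at 0 under every alternative run. Testing every probe set on its own gave 13 receptor genes higher in FFPE brain (7 with 1 probe set per gene), 4 lower in FF brain than FF liver (2), 2 lower in FFPE liver (1) and 10 with a positive brain-minus-liver preservation difference (4). Averaging probe sets left 1 lower in FF brain than in liver. Quantile normalization gave 7 positive preservation differences, the absence of a brightness filter 1 gene lower in FFPE brain than in FFPE liver (0 with it), and a model without time terms 0 lower in FFPE liver. The mean of probe sets reversed FFPE minus FF in brain for Gabra2 (0.05), Gabrb2 (0.26) and Gabrd (0.33), and the brain-minus-liver preservation difference for Grin2b (0.21), Gabrb2 (0.04) and Gabrd (0.19), and took brain minus liver in FF for Gabrg3 to 0.00. The unmarked probe set of Gabrd gave 1.19 for FFPE minus FF in brain, -1.02 for brain minus liver in FF and 1.14 for their preservation difference. Quantile normalization reversed FFPE minus FF in brain for Grin2c (0.07), Gabra2 (0.13) and Gabrd (0.40), and the preservation difference for Grin2b (0.37) and Gabrd (0.32). The cause of these reversals was not tested. Leaving out each array in turn gave 7 to 7 genes higher and 12 to 14 lower in FFPE brain, 20 to 20 higher and 2 to 2 lower in FF brain than liver, 19 to 20 higher and 0 to 0 lower in FFPE brain than liver, 7 to 10 higher and 0 to 1 lower in FFPE liver, and 4 to 4 positive and 15 to 16 negative preservation differences. Signal near background limits Grin2d, Grik1, Gabra6 and the second probe sets of Gabrg3, Grik3 and Gabra3. It also limits Grid1, Grin2a and the main probe set of Gabrg3 in FF brain. With 4 residual degrees of freedom small time effects may go uncalled.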
